A study of Drosophila melanogaster with 136 samples.

Results

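Feeding third-instar larvae and adult flies of Drosophila melanogaster both digest food in the midgut, but the larval organ is broken down at metamorphosis and a new one is built for the adult. The comparison described here sets the 4 arrays labelled larval feeding midgut against the 4 labelled adult midgut, 8 of the 136 arrays in the series, which fall into 34 groups of 4. The arrays were chosen by their titles alone. The series is a survey of RNA levels in dissected tissues, whole animals and a cell line on the Affymetrix Drosophila Genome 2 array.

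Each larval midgut array held RNA of 30 feeding third-instar larvae. Each adult midgut array held RNA pooled from 25 female and 25 male flies that were 7 days old. Both groups were of the wild-type strain Canton-S, kept at 23 C, and carried no mutation or treatment according to the labels. In both the organ was cut from just behind the proventriculus to just ahead of the entry of the Malpighian tubules, and 2 ug of total RNA went through 1 round of amplification. The adult replicates are titled biological and the larval ones "rep". The labels do not tie animals to arrays, and p-values here cover the spread between the 4 arrays of a stage, which may be technical. The labels give no scan date or batch, and stage cannot be told apart from any set in which the arrays of 1 stage were processed. Sexes were pooled in the adult and not stated for the larva.

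The midgut is a tube of enterocytes, the absorbing cells that also secrete digestive enzymes, with enteroendocrine cells that release peptide hormones, small progenitor cells and a coat of visceral muscle. Its cells do not touch food directly. Between them and the food lies the peritrophic matrix, a sleeve of chitin fibres. The fibres are bound by peritrophins, which are proteins with chitin-binding domains, and by heavily glycosylated mucins. In bulk tissue, fewer cells of a type and less RNA per cell cannot be told apart.

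Values are signals in arbitrary units on a linear scale, brought by 1 factor per array to the same trimmed mean of 100.004. The median probe set of the 8 arrays stood between 10.4 and 12.7. Fold changes are differences of log2(signal + 10.0004), larval minus adult, so that those of genes with a signal near or under that constant in 1 stage are understated. A probe set was called where limma, fitted to the 8 arrays, found a difference of 2-fold or more with an adjusted p (Benjamini-Hochberg) under 0.05. Levels of different genes are not compared, since each probe set has its own brightness. The correlation of log2 signals lay between 0.976 and 0.987 among larval arrays, between 0.988 and 0.989 among adult arrays, and between 0.895 and 0.908 across the stages. Genes of the midgut were bright at both stages, among them GATAe, a transcription factor of the endoderm, with 448 to 521 in larval and 489 to 596 in adult midgut, while byn, which specifies the hindgut and is 1 of 4 hindgut markers described further on, lay between 1.31 and 12.8 in larval and between 4.70 and 12.0 in adult midgut.

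Larval replicates 1 and 2 carried a faint signal of adult reproductive genes. It was looked for after values of single genes had been seen, in 28 probe sets with a mean of at least 1000 in the whole fly, below 10 in the whole larva, and with their highest tissue mean in accessory gland, ovary, testis or ejaculatory duct. Their median signal was 21.6, 10.5, 7.47 and 7.31 in the 4 larval midgut arrays, against 5.06, 3.65, 4.04 and 4.37 in the adult midgut arrays. In the 36 arrays of other larval tissues it lay between 1.78 and 8.80. Of these probe sets 21 were tested, and 7 of them were called higher in larval midgut, beside 4.52% of all tested probe sets. Their larval means were at most 48.3. Since the signal filter needs only 1 of the stage means, a probe set could be tested through its larval mean alone. Without larval replicate 1 the comparison called 550 probe sets higher and 659 lower, and without replicates 1 and 2 together 544 and 667, beside the counts given next.

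Of 12364 tested probe sets, 559 (4.52%) were called higher and 626 (5.06%) lower in larval than in adult midgut, 9.58% in all, and the median log2 fold was -0.04. Taking each gene by its brightest probe set, 472 of 9111 genes were higher (5.18%) and 503 were lower (5.52%). The larval and adult arrays did not overlap in 43.8% of all tested genes, called or not, and in 40.4% of the probe sets. Some of the differences spanned the whole range of the array. At least 64-fold differences were found for 25 genes that were higher and 20 that were lower.

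**Figure D1:**
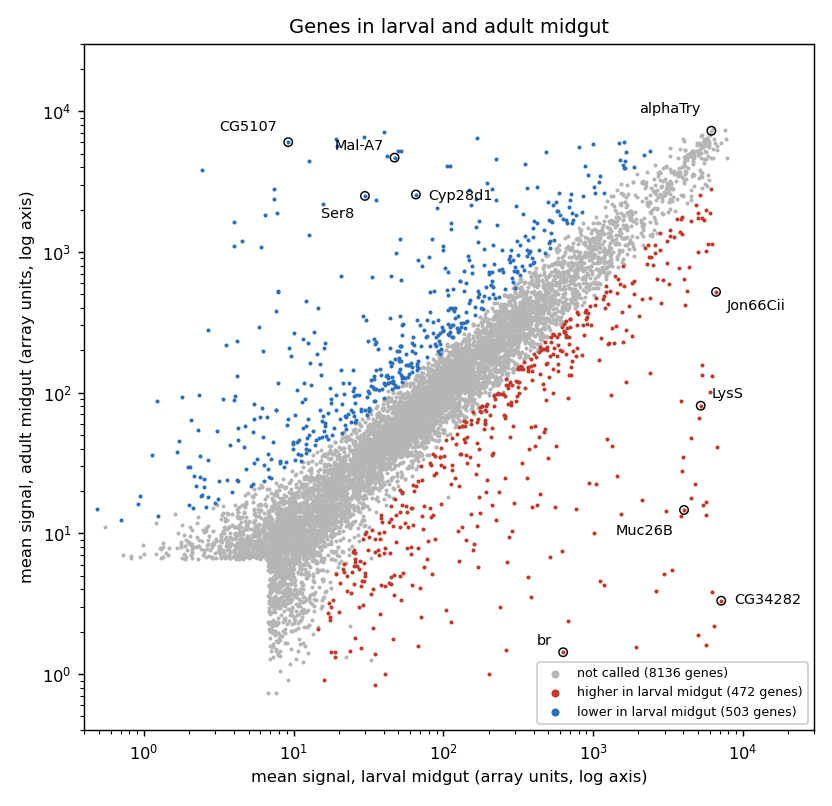
Mean signal of 9111 genes in larval midgut (x axis, 4 arrays) and adult midgut (y axis, 4 arrays), both on log axes in array units, with 472 genes called higher in larval midgut in red, 503 called lower in blue and the others in grey. The named genes at the corners, such as CG34282 and CG5107, are among the brightest in 1 stage and lie near background in the other.

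The largest fold changes on this scale can only come from probe sets with a high signal in 1 stage and a signal near background in the other. CG34282 gave signals of 7040, 7736, 7268 and 6581 in larval midgut and 4.77, 1.79, 2.46 and 4.26 in adult midgut. CG5084 stood at 5831, 7009, 6915 and 6058 in larval midgut, against 1.90, 1.34, 2.94 and 2.65 in adult midgut. CG33128, predicted to encode a pepsin-like aspartic protease, gave 5458, 6171, 5875 and 5127 in larval midgut and 1.64, 1.58, 2.12 and 1.12 in adult midgut. In all 3 genes every larval array lay far above every adult array, and the log2 folds were 9.08 ± 0.11, 9.05 ± 0.10 and 8.93 ± 0.09 (SE, limma adjusted p = 1.9e-11, 1.7e-11 and 1.7e-11). The neighbouring genes CG4367 and CG4362 also rose, with log2 folds of 7.67 and 7.59.

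On the adult side the extremes included several enzymes. CG5107 gave 18.3, 7.77, 9.02 and 1.73 in larval midgut and 6035, 5802, 6152 and 6094 in adult midgut, a log2 fold of -8.36 ± 0.22 (SE, limma adjusted p = 2.9e-09). CG17192, a gene of the lipase family, had 5.14, 1.13, 1.22 and 2.21 in larval midgut and 4112, 2887, 3282 and 4884 in adult midgut. The stages did not overlap in either gene. CG12374, a zinc carboxypeptidase that trims amino acids from the end of digested proteins, had signals of 68.4, 39.6, 33.0 and 19.2 in larval midgut, against 7243, 6984, 7185 and 7049 in adult midgut. CG7542, a serine protease, fell by 6.55 on the log2 scale and CG8834, an acyl-CoA synthetase, fell by 7.36. CG34324, CG3906, CG14645, CG15199, CG3739 and CG34040 had log2 folds between -7.85 and -6.78. In CG14645 and CG12374 the larval array with the highest signal was replicate 1, at 66.4 and 68.4, the array with the most signal of adult reproductive genes, and its part in these larval levels was not tested. Without larval replicates 1 and 2 the log2 fold of CG14645 was -8.32, beside -7.61 with all arrays.

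**Figure D2:**
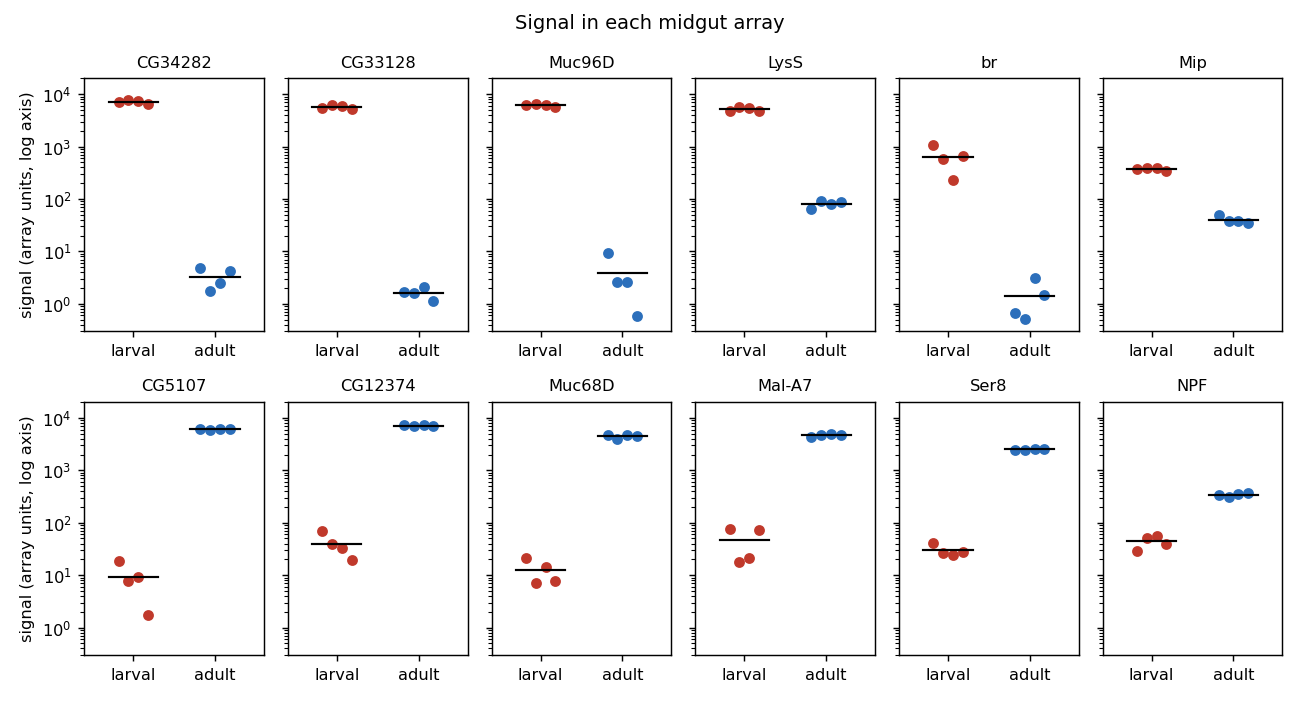
Signal in each of the 4 larval (left, red) and 4 adult (right, blue) midgut arrays, on a log axis in array units, for 6 genes called higher and 6 called lower in larval midgut; the bar is the group mean. Except for br in the larva, the 4 arrays of a stage lie close together at the bright end. They scatter more at the dim end, and the stages do not overlap in any of the 12 genes.

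Different mucins and chitin-binding proteins were bright at the 2 stages. Of 17 tested genes in a list of peritrophins, mucins and chitin enzymes, 6 were called higher and 2 lower in larval midgut, 47.1% beside 10.7% of all tested genes, and their median log2 fold was 0.24. Muc96D gave 6225, 6641, 6281 and 5789 in larval midgut and 9.41, 2.62, 2.59 and 0.588 in adult midgut. Its probe set may also bind related transcripts. Muc26B had 3666, 4309, 4203 and 3982 in larval midgut, against 16.8, 20.99, 10.03 and 10.9 in adult midgut. Both mucins were near background in the adult, with log2 folds of 8.86 and 7.38, and Muc55B rose by a log2 fold of 5.77.

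Muc68D and Muc68E were lower in larval midgut. Muc68D gave 21.4, 7.09, 14.3 and 7.66 in larval midgut and 4624, 3954, 4729 and 4482 in adult midgut, a log2 fold of -7.67 ± 0.19 (SE, limma adjusted p = 1.5e-09). Muc68E had 218, 185, 150 and 142 in larval midgut, against 1666, 1810, 1785 and 1411 in adult midgut, a log2 fold of -3.20. Each of these mucins was bright in 1 stage with no overlap between the arrays. Some matrix genes did not pass the test: Peritrophin-15a had means of 5114 ± 492 in larval and 4939 ± 306 in adult midgut (SD, n = 4 each), and Mur29B had a log2 fold of 0.24 (limma adjusted p = 0.11).

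The obstructor genes encode small chitin-binding proteins first known from cuticle. Those whose symbol begins with obst- were counted, after their values had been seen. Of 8 such genes on the array, all of them tested, 5 were called higher in larval midgut, beside 5.18% of all tested genes. These were obst-F, obst-G, obst-H, obst-I and obst-J. obst-J gave 1797, 2088, 1942 and 1873 in larval midgut and 0.732, 3.59, 0.931 and 0.961 in adult midgut, a log2 fold of 7.39. obst-F stood at 1096, 1941, 1783 and 1337 in larval midgut, against 16.2, 12.4, 12.7 and 13.96 in adult midgut. obst-A, obst-B and obst-E were dim at both stages, at most 39.2 in larval and 27.4 in adult midgut, and did not pass the test.

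Of 12 tested trypsin-like digestive proteases 4 were called, each of them lower in larval midgut, 33.3% beside 10.7% of all tested genes and 5.52% called lower, with a median log2 fold of -0.53. The trypsins alphaTry, betaTry and epsilonTry, with log2 folds of -0.24, -0.15 and -0.15, did not pass. alphaTry had 6067, 6756, 6321 and 5462 in larval midgut and 7503, 7048, 7224 and 7250 in adult midgut, close to the brightest signal on these arrays, between 7048 and 8460, so that the array's range may limit what it shows here, which was not tested. Ser8 gave 40.3, 27.0, 24.4 and 28.0 in larval midgut, against 2421, 2446, 2597 and 2529 in adult midgut. It fell by 5.99 on the log2 scale (limma adjusted p = 4.7e-10), and kappaTry, lambdaTry and Try29F had log2 folds of -1.60, -1.45 and -2.34.

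The Jonah proteases, a family of chymotrypsin-like gut enzymes, had calls in the other direction. Of 13 tested genes 3 were higher in larval midgut, 23.1% beside 10.7% of all tested genes, and the median log2 fold was 0.03. Jon66Cii stood at 6813, 6892, 6854 and 5870 in larval midgut and at 540, 577, 481 and 480 in adult midgut. Jon66Ci had 6066, 6411, 5914 and 5546 in larval midgut, against 1933, 1824, 1887 and 1863 in adult midgut. These neighbouring genes rose with log2 folds of 3.64 and 1.67, with no overlap between the stages, and Jon65Aii rose with one of 1.15. Jon99Fi, Jon74E and Jon65Aiii were bright in both stages and were not called.

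Of 20 tested carbohydrases, enzymes that cleave sugars, 13 were lower in larval midgut and 7 were not called. The called share was 65% beside 10.7% of all tested genes, and the median log2 fold was -1.70. The maltases Mal-A1, Mal-A2, Mal-A3, Mal-A4, Mal-A6, Mal-A7 and Mal-A8, which split maltose and sucrose into simple sugars, all fell, with log2 folds from -6.55 to -1.83. Mal-A7 gave 75.9, 18.2, 20.95 and 73.6 in larval midgut and 4410, 4743, 4866 and 4670 in adult midgut. tobi, an alpha-glucosidase known to respond to dietary protein and sugar, had 169, 42.4, 44.4 and 166 in larval midgut, against 4025, 3958, 4236 and 4173 in adult midgut. Gal, the beta-galactosidase, had 156, 103, 84.1 and 107 in larval midgut and 1574, 1396, 1810 and 1598 in adult midgut. In each of these genes every adult array lay above every larval array, and the log2 folds were -6.55 ± 0.36, -5.40 ± 0.41 and -3.74 ± 0.17 (SE).

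The larval arrays differed among themselves in several of these genes. Replicates 1 and 4 lay above replicates 2 and 3 for Mal-A7 and tobi, and likewise for Mal-A8, at 657, 215, 237 and 571 in the 4 larval arrays, where the adult arrays lay between 2816 and 3049. Mal-A6 showed the same order, with 1181, 496, 429 and 1122 in larval midgut and 5367 to 5815 in adult midgut. Mal-A2, by contrast, lay between 566 and 610 in larval and between 2567 and 2670 in adult midgut. Treh, which cleaves trehalose, the main blood sugar of insects, fell as well, with a log2 fold of -1.57. LManV and LManVI, lysosomal alpha-mannosidases, had log2 folds of -0.01 and -0.03 and did not pass, and LManII, at -0.93, was under the 2-fold limit. The other genes not called were Mal-A5 at 0.05, Amyrel, an amylase relative, at -0.14, Mal-B1 at -0.43 and Mal-B2 at -0.34.

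**Figure D3:**
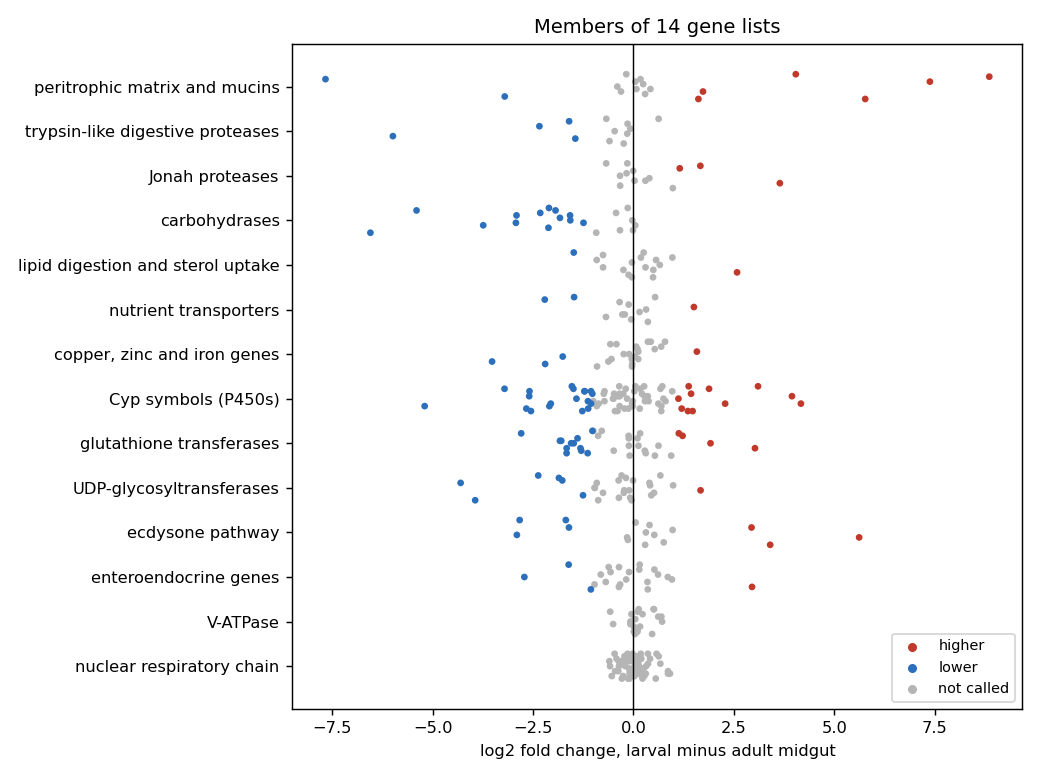
Log2 fold change, larval minus adult midgut, of each tested member of 14 gene lists (one row per list, zero marked by a line); red points were called higher, blue lower and grey not called. The carbohydrases lie mostly left of zero, the peritrophic matrix genes reach both ends, and the V-ATPase and respiratory chain genes stay close to zero.

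Lysozymes, which in flies digest bacteria taken in with food, were tested for 3 genes. LysS gave 4876, 5776, 5552 and 4682 in larval midgut and 65.1, 90.2, 81.3 and 86.2 in adult midgut, with no overlap and a log2 fold of 5.85 ± 0.12 (SE, limma adjusted p = 4.7e-10). LysX and LysP had log2 folds of 0.60 and 0.87 and were not called, so that 33.3% of the list was called, beside 10.7% of all tested genes. Of 17 genes of lipid digestion and sterol uptake 2 were called, 11.8% beside 10.7% of all tested genes. Npc2c rose with a log2 fold of 2.58 and Npc2e fell with one of -1.49, and both encode sterol-binding proteins. mag, the main gut lipase, had means of 5723 in larval and 2960 in adult midgut, a log2 fold of 0.97 that was just under the 2-fold limit.

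Among 12 genes of lipid synthesis and storage 2 were higher and 1 was lower, 25% beside 10.7% of all tested genes, with a median log2 fold of -0.21. FASN1, the fatty acid synthase, gave 2373, 2531, 3245 and 3574 in larval midgut and 603, 578, 679 and 646 in adult midgut, a log2 fold of 2.19. Desat1, which makes monounsaturated fatty acids, rose with one of 1.36. whd, the carnitine palmitoyltransferase that admits fatty acids into mitochondria for burning, had 959, 595, 227 and 626 in larval midgut, against 1845, 1780, 1878 and 1757 in adult midgut. The stages did not overlap for whd, and it fell by 1.74 on the log2 scale (limma adjusted p = 0.0032). Of 13 nutrient transporters 1 was higher and 2 were lower, 23.1% beside 10.7% of all tested genes. The transporter sut1 rose and its neighbour sut2 fell, with log2 folds of 1.51 and -1.48, and path, an amino acid transporter, fell by 2.21.

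Enzymes that detoxify foreign compounds changed in both directions. Of 72 tested genes whose symbol begins like those of the cytochrome P450s, 11 were higher and 19 lower, 41.7% beside 10.7% of all genes, with a median log2 fold of -0.24. The symbols also take in Cyp1 and Cyp40, which encode cyclophilins and were not called. Cyp28d1 and Cyp28d2, which lie next to each other, went opposite ways. Cyp28d1 had 121, 41.9, 41.6 and 57.3 in larval midgut and 2579, 2314, 2874 and 2456 in adult midgut, a log2 fold of -5.20. Cyp28d2 stood at 271, 370, 560 and 359 in larval midgut, against 19.0, 19.4, 12.1 and 11.2 in adult midgut, a log2 fold of 3.95. Cyp304a1 rose by a log2 fold of 4.17 and Cyp6a20 fell with one of -3.21.

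Glutathione transferases, which attach glutathione to reactive compounds, had 4 members higher and 12 lower of 32, 50% beside 10.7% of all tested genes, with a median log2 fold of -0.31. GstE10 had 245, 345, 423 and 320 in larval midgut and 35.7, 31.3, 30.4 and 28.7 in adult midgut, a log2 fold of 3.03. GstE6, from the same gene cluster, gave 334, 199, 262 and 422 in larval midgut, against 2110, 1817, 2076 and 2404 in adult midgut, and fell by 2.79 on that scale. In the neighbouring GstD genes, GstD4, GstD6 and GstD7 were higher and GstD5 and GstD8 lower. Further GstD genes were also called lower, with log2 folds of -1.80 and -1.32. The log2 fold of GstD7 was 1.13, or 0.99 and no call without larval replicate 3 or without adult replicate 2. With a pseudocount of 40% GstD4, GstD6, GstD7 and GstD8, at 0.67, 0.92, 0.97 and -0.91, were not called. These copies are similar in sequence, and how far a probe set takes up signal of its relatives was not tested. Of 28 UDP-glycosyltransferases, which attach sugars to such compounds, 1 was higher and 6 were lower, 25% beside 10.7% of all tested genes. Ugt302E1 fell by 4.30 and Ugt35C1 by 3.94.

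Metal genes included MtnC, a metallothionein that binds copper and zinc, with 226, 588, 787 and 349 in larval midgut and 5341, 4705, 5164 and 5333 in adult midgut. The stages did not overlap, and the log2 fold was -3.52 (limma adjusted p = 2.3e-05). Of 24 tested genes for copper, zinc and iron, 1 was higher, the zinc transporter ZnT77C with a log2 fold of 1.58, and 3 were lower, 16.7% beside 10.7% of all tested genes. MtnA had means of 6262 in larval and 7425 in adult midgut and the ferritin subunits Fer1HCH and Fer2LCH had log2 folds of -0.04 and 0.04, and none of these was called.

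In the list of antimicrobial peptides, 1 of 11 tested genes was higher and 2 were lower, 27.3% beside 10.7% of all tested genes. Drsl2, a relative of the antifungal peptide drosomycin, gave 3133, 726, 581 and 1335 in larval midgut and 15.6, 40.4, 36.3 and 9.17 in adult midgut. It rose by a log2 fold of 5.15, with larval replicate 1 the highest, while its neighbour Drsl3 fell by 1.36. Def, the antibacterial defensin, had 14.1, 50.9, 87.2 and 23.6 in larval midgut, against 223, 139, 156 and 142 in adult midgut. Of 16 tested genes for peptidoglycan recognition and the Imd pathway, which senses gut bacteria, 1 was called, PGRP-LF, which was lower, with a log2 fold of -1.24, or -0.79 and no call with a pseudocount of 40%. The called share was 6.25% beside 10.7% of all tested genes. PGRP-SC2 and pirk, of the same list, had log2 folds of -0.17 and -0.36 and were not called.

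Of 16 tested genes of the hormone ecdysone, which times moults and metamorphosis, 3 were higher, 4 were lower and 9 were not called, 43.8% called beside 10.7% of all tested genes. br, the Broad transcription factor of the larval to pupal switch, gave 1069, 572, 226 and 651 in larval midgut and 0.677, 0.503, 3.07 and 1.48 in adult midgut. EcR, the ecdysone receptor, had 389, 230, 113 and 214 in larval midgut, against 23.6, 20.8, 21.5 and 13.4 in adult midgut. shd, the enzyme that turns ecdysone into its active form, stood at 490, 301, 251 and 401 in larval midgut and at 27.0, 16.9, 19.7 and 35.0 in adult midgut. All 3 were highest in larval replicate 1 and lowest in replicate 3, without reaching the adult range, and their log2 folds were 5.62 ± 0.38, 2.94 ± 0.30 and 3.40 ± 0.23 (SE). Eip93F, an ecdysone-induced factor of later metamorphosis, fell by 2.90, and usp, the partner of the receptor, had a log2 fold of 0.52 and was not called. Of 6 juvenile hormone genes only jhamt was called, 16.7% beside 10.7% of all tested genes. It was lower in larval midgut, at signals of at most 1.55 in larval and 21.996 in adult midgut. Its log2 fold of -1.01 was -0.99 without larval replicate 4 and -0.84 without adult replicate 4, which ended the call.

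Of 22 enteroendocrine genes, which include the peptide hormones of the gut, 1 was higher and 3 were lower, 18.2% beside 10.7% of all tested genes. NPF, a peptide that signals feeding state, gave 29.4, 51.6, 55.7 and 39.7 in larval midgut and 332, 311, 349 and 363 in adult midgut, a log2 fold of -2.71. AstC, allatostatin C, had 370, 545, 525 and 438 in larval midgut, against 1547, 1330, 1391 and 1499 in adult midgut, a log2 fold of -1.61. Mip, the myoinhibitory peptide, went the other way, with 376, 385, 389 and 341 in larval midgut and 48.7, 37.8, 37.9 and 34.1 in adult midgut, a log2 fold of 2.95. The stages did not overlap for any of these peptides. Dh31 and CCHa2 had log2 folds of 0.96 and 0.36 and did not pass.

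Of 23 transcription factors of gut identity and body position, 3 were higher and 4 were lower, 30.4% beside 10.7% of all tested genes. grn, a GATA factor, gave 306, 263, 211 and 269 in larval midgut and 3.32, 1.58, 0.590 and 0.465 in adult midgut, a log2 fold of 4.56. odd, a zinc finger factor, had 34.4, 20.6, 27.2 and 38.6 in larval midgut, against 322, 313, 320 and 354 in adult midgut, a log2 fold of -3.09. mirr, a homeodomain factor, rose with a log2 fold of 1.57. GATAe and cad, with log2 folds of -0.19 and 0.30, were not called.

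Of 13 tested progenitor genes 2 were called, 15.4% beside 10.7% of all tested genes. They were mira and E(spl)m3-HLH, a cargo adaptor of dividing stem cells and a target of Notch signalling, both lower, with log2 folds of -1.04 and -1.28; without larval replicate 4 the fold of mira was -0.97 and it was not called. esg, the marker of intestinal stem cells and their daughters, had means of 213 ± 39.9 in larval and 286 ± 33.2 in adult midgut (SD, n = 4 each), a log2 fold of -0.42. None of 32 cell cycle genes was called, with a median log2 fold of 0.12. Of 19 genes for growth factor and cytokine signalling 2 were lower, a called share of 10.5% beside 10.7% of all tested genes. They were Pvf1 with a log2 fold of -1.53 and Dad, a target and inhibitor of Dpp signalling, with one of -1.44.

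Several gene lists held few calls or none. None of 23 tested V-ATPase genes, whose pump acidifies compartments and drives transport, was called, with a median log2 fold of 0.10. None of 65 nuclear genes of the respiratory chain was called, with a median of 0.03, nor any of 17 junction genes or 18 genes of apoptosis and autophagy. In the 37 tested genes that match cytosolic ribosomal proteins the only call, 2.70% beside 10.7% of all tested genes, was RpL24-like. It fell by 1.29, and its yeast counterpart acts in ribosome assembly rather than in the ribosome. Of 17 ribosome biogenesis genes 1 was lower, 5.88% of the list, Nop17l with a log2 fold of -1.40. At unadjusted p below 0.05, 9 of the V-ATPase genes, 28 of the respiratory chain genes, 12 of the cell cycle genes, 12 of the junction genes and 6 of the apoptosis and autophagy genes would pass, beside 6151 of all 12364 probe sets.

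Markers of other tissues were read at the same time, first those of the segments next to the cut. The 4 hindgut markers summed to 79.2 to 105 in larval and 248 to 318 in adult midgut, against 785 in larval and 687 in adult hindgut, and 3 of them had means below 10 in both midguts. The fourth, Ugt36A1, also listed as a UDP-glycosyltransferase, gave 71.7, 80.7, 69.0 and 75.4 in larval midgut and 298, 302, 241 and 272 in adult midgut, and fell with a log2 fold of -1.77. Its means in the hindgut, 45.7 in larvae and 43.8 in adults, were under those of the midgut at the same stage. The 5 tubule markers summed to 633 to 977 in larval and 603 to 686 in adult midgut, against 5115 in larval tubule. Of 4 tested, Lkr rose with a log2 fold of 1.19, at 17.4 to 33.5 in larval and 0.930 to 9.51 in adult midgut, and Irk2, a potassium channel, fell with one of -1.93. Irk2 had means of 23.4 in larval and 117 in adult midgut, and of 3856 in larval and 4564 in adult hindgut.

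The summed signal of 16 muscle genes lay between 7651 and 8142 in larval and between 6705 and 7439 in adult midgut, and 1 of 15 tested, Act87E, was called higher, with a log2 fold of 1.04, or 0.97 and no call without adult replicate 3. Fat body genes summed to 103 to 368 in larval and 229 to 490 in adult midgut, against 24420 in larval and 13531 in adult fat body. Of 6 tested, Lsp2, a larval storage protein, was higher with a log2 fold of 1.05, or 0.87 without larval replicate 1 and 0.99 without adult replicate 3, under the 2-fold limit. Yp3, a yolk protein, was lower with a log2 fold of -2.19. Of 10 salivary gland genes, which summed to 52.8 to 342 in larval and 20.1 to 48.0 in adult midgut against 77277 in larval salivary gland, Sgs4 was called higher. Sgs3 and Sgs7 stood at 85.6 and 126 in larval replicate 3 and at most at 4.27 in the other larval arrays. The 4 tracheal genes summed to 108 to 157 in larval and 45.3 to 59.6 in adult midgut against 4538 in larval trachea. Of 3 tested, serp and verm were called higher, and the other had a log2 fold of -0.63 and was not called. The log2 fold of verm was 1.06, or 0.95 without larval replicate 2 and 0.99 without larval replicate 3, under the 2-fold limit. With a pseudocount of 40% serp, at 0.83, and verm, at 0.42, were not called. The 6 haemocyte genes summed to 846 to 1065 in larval and 291 to 326 in adult midgut. Of 5 tested only crq, a scavenger receptor that made up most of these sums, was called, with means of 866 in larval and 258 in adult midgut and a log2 fold of 1.70, while Hml lay between 0.935 and 14.9 in the 8 arrays. Of the tested markers 66.7% were called for trachea, 50% for tubule and for hindgut, and 33.3% for fat body. Shares were 25% for salivary gland, 20% for haemocytes, 16.7% for germline and reproductive tract and 6.67% for muscle, beside 10.7% of all tested genes. None of 5 tested neuron markers and none of 3 tested flight muscle markers was called. The part of these tissues in the results was not tested.

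The hindgut, the segment behind the midgut, was dissected at the same stages and gives the nearest comparison. Its own larval minus adult difference uses other arrays, but there too stage cannot be told apart from any set in which the arrays were processed. Of the 472 genes higher in larval midgut, 152 (32.2%) were also called higher in larval hindgut, 20.7% of the 735 genes called higher there, and 24 were called lower. Of the 503 lower genes, 210 (41.7%) were also lower in larval hindgut, 25.7% of its 817, and 21 were higher. Of all genes tested in the hindgut 8.05% were called higher and 8.95% lower, and of its probe sets 7.19% and 8.25%, 15.4% in all.

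Several lists with midgut calls had calls in the hindgut too, not necessarily of the same genes. In larval hindgut 7 of 15 peritrophic matrix and mucin genes were higher and 1 lower. For carbohydrases it was 0 and 6 of 15, for trypsin-like proteases 1 and 6 of 13 and for Jonah proteases 1 and 2 of 10. For the P450 symbols it was 5 and 27 of 72, and for glutathione transferases 5 and 11 of 30. Of the listed ecdysone genes 16 were tested in the hindgut, and 3 were higher and 2 lower in the larva there. br averaged 1048 ± 303 in larval and 3.47 ± 3.23 in adult hindgut (SD, n = 4 each), a log2 fold of 6.27, and EcR had a log2 fold of 2.91 there. Whether the stage difference itself differed was tested as an interaction term, the midgut difference minus the hindgut difference. It was -0.65 for br (limma adjusted p = 0.31) and 0.03 for EcR (limma adjusted p = 0.96), and neither passed. CG4367 had means of 1826 in larval and 1.40 in adult hindgut, a log2 fold of 7.31, close to its 7.67 in the midgut. CG11878 averaged 76.0 in larval and 3496 in adult hindgut, and Eip93F had a log2 fold of -3.24 there.

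**Figure D4:**
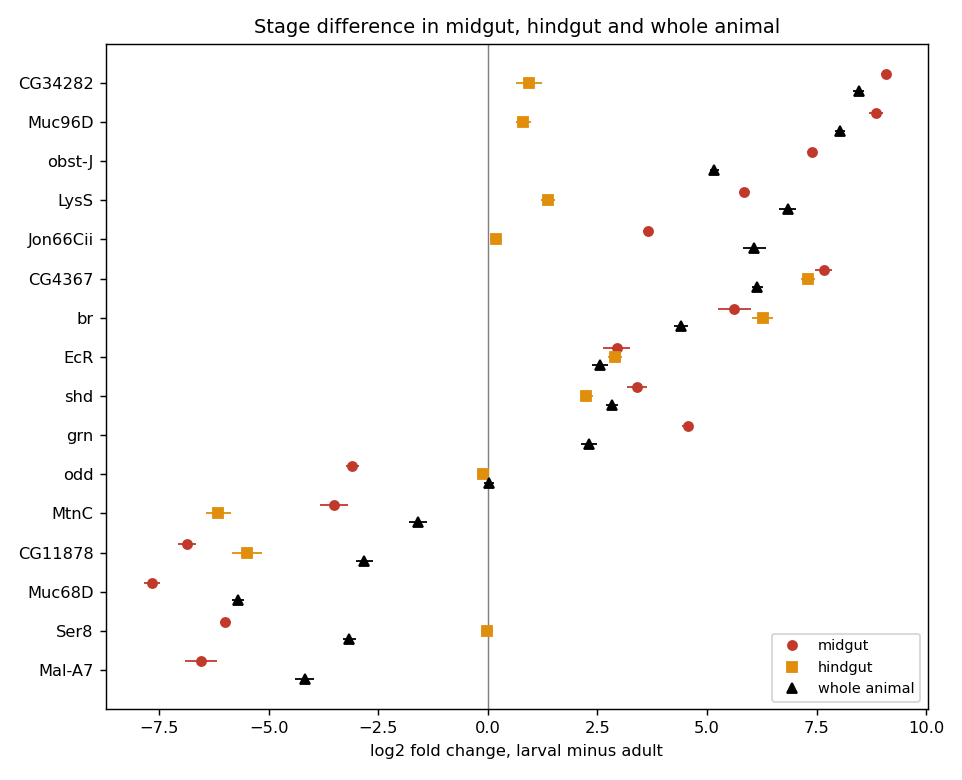
Log2 fold change, larval minus adult, in the midgut (red circles), hindgut (orange squares) and whole animal (black triangles) for 16 genes, with bars of 1 SE; a gene without a hindgut point was below the signal filter there. CG34282 and Muc96D lie at 0.94 and 0.81 in the hindgut, Muc68D and Mal-A7 have no point there, and br and EcR lie above zero in all 3.

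The interaction term was called for 1034 of 13669 probe sets above zero (7.56%) and for 989 below zero (7.24%), 14.8% in all. Since it uses the midgut arrays too, its direction for genes chosen by their midgut call is partly fixed. Its 6 largest values were 9.06 for CG5084, 9.04 for CG10154, 8.15 for CG33128, -8.14 for CG17192, 8.14 for CG34282 and 8.08 for CG7715, all with hindgut means of at most 55.2. odd averaged 271 in larval and 292 in adult hindgut, and its term was -2.98. MtnC fell further in the hindgut, with means of 23.5 in larval and 2170 in adult hindgut, and its term was 2.63 (limma adjusted p = 0.00029).

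Against the whole animal, which contains the midgut, the term was called for 2635 of 14366 probe sets above zero (18.3%) and for 1645 below zero (11.5%), 29.8% in all, so that 61.6% of calls were positive. With quantile normalization, where the median term of all probe sets was 0.00071 in place of 0.17, that share was 48.9%. Of the 472 genes higher in larval midgut, 263 (55.7%) were also higher in the whole larva than in the whole fly, 22.4% of the 1175 called there, and of the 503 lower genes 145 (28.8%) were also lower, 6.11% of 2374. Of all genes tested in the whole animals 11.6% were higher and 23.4% lower, and of the probe sets 11.3% and 22.4%, 33.7% in all. The 6 largest terms belonged to Acp98AB, CG16826, CG18628, Mst57Da, Vm34Ca and dhd, which are bright in the whole fly and dim in both midguts. Of these Acp98AB gave 72.3, 52.1, 17.3 and 11.4 in larval midgut and 7.48, 0.957, 5.95 and 2.76 in adult midgut, against a mean of 3782 in the whole fly.

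The called genes were often at their highest in the midgut itself. Among 30 dissected tissues, 150 of the 472 higher genes (31.8%) had their highest mean in larval midgut, beside 3.71% of all tested genes, and 155 of the 503 lower genes (30.8%) had theirs in adult midgut, beside 4.08%. The next tissues were the tubules of wandering larvae for 42 of the higher genes and the adult crop for 35 of the lower. CG34282 reached at most 33.2 in any other tissue and CG33128 at most 35.1. CG14645 had its next highest mean in the adult crop, at 880, and tobi in the virgin spermatheca, at 1571. These are descriptions over genes chosen by their midgut values.

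Some called genes lie side by side in the gene order of the RefSeq annotation. Of 6398 pairs of neighbouring protein-coding genes that were both tested, 139 (2.17%) were both called, where 10.7% of single genes were called. Of these pairs 43 were both higher, 55 both lower and 41 in opposite directions. Whether this is more than genes far apart would give was not tested, nor was probe sequence shared by related neighbours. There were 16 runs of at least 3 neighbours called in 1 direction, 8 higher and 8 lower, which hold 57 genes. The longest run held 6 genes predicted to encode chitin-binding proteins, CG7290, CG6996, CG7017, CG6933, CG17145 and CG17147, with log2 folds from 4.45 to 7.91. CG7290 gave 5577, 6018, 5798 and 5106 in larval midgut and 14.3, 16.3, 11.6 and 11.6 in adult midgut. A second run of this kind, CG5883, CG7252, CG17826, obst-G and CG7248, had log2 folds from 4.46 to 7.73.

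A few genes further along the chromosome lie Muc68E, CG42397 and CG14125, which went the other way. CG14125 gave 50.2, 56.5, 54.6 and 45.4 in larval midgut and 5436, 4949, 5107 and 5318 in adult midgut, a log2 fold of -6.40. Its other neighbour CG43896 had 2884, 3698, 3655 and 3213 in larval midgut, against 4.23, 10.2, 2.60 and 5.03 in adult midgut, a log2 fold of 7.78. Shorter higher runs were CG7714, CG7715 and CG14302, with log2 folds of 7.33, 8.71 and 7.76, and CG13806, obst-I and CG32302, with 2.55, 6.28 and 5.48. Lower runs included Mal-A1 to Mal-A4 with Cyp4e1, and Mal-A6 to Mal-A8, and a run of CG31300, CG31104, CG13658 and CG11893, with log2 folds from -6.40 to -1.67.

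**Figure D5:**
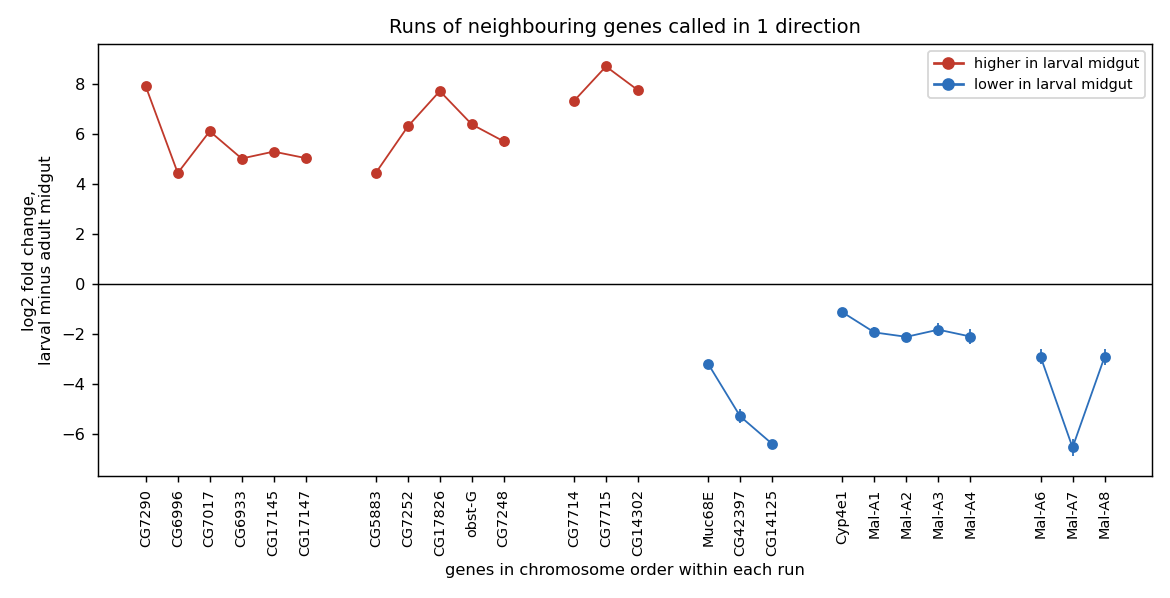
Log2 fold change, larval minus adult midgut, along 6 runs of neighbouring genes in chromosome order, with bars of 1 SE. The chitin-binding runs around CG7290, CG17826 and CG7715 lie between 4.45 and 8.71, and the runs of Mal-A genes and around CG14125 lie below zero, between -6.55 and -1.13.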

How the data were processed

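RNA of larval and adult midgut was measured on 8 Affymetrix arrays. The authors deposited 1 linear intensity per probe set for each array; the software and summary method are not given in the sources used here. Before deposit the arrays had been scaled: the mean of the middle 96% of the 18952 deposited intensity values lay between 100.002 and 100.006 on every array. Each array was multiplied by 1 factor to a mean of 100.004, 183 control probe sets were left out, and log2(signal + 10.0004) was used for 18769 probe sets.

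Gene symbols came from the array annotation: it gives 1 symbol for 13647 probe sets and several for 402, and does not list 4720, and a gene is its brightest probe set with 1 symbol. The gene table (assembly Release 6 plus ISO1 MT) was used for 13544 names and for neighbours only. Probe sets were tested if they reached the 40th percentile of signal in 1 of the group means. Fits used limma 3.58.1 in R 4.3.3 (lmFit, eBayes), 4 arrays per group with no covariate, and Benjamini-Hochberg adjustment over all tested probe sets; every adjusted p-value printed is limma's. No 2 midgut arrays were identical. In simulated larval against adult midgut data the fit recovered 48, 50, 50 and 50 of 50 probe sets changed 2.5-, 4-, 8- and 0.25-fold. It made 0 false calls among 12164 unchanged probe sets of 12364. The changed probe sets were drawn only from those well above the median signal in adult midgut, and the simulated noise was normal. Recovery among dim probe sets was not tested.

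The members, gene lists and tests were chosen with earlier results of these data known. Genes were named by rule: the 14 largest called each way without overlap, per list the 4 called with the largest fold and up to 3 others by signal, and the 6 largest interaction terms of each kind. The obstructor genes, the members of neighbour runs, the opposite neighbours, the reproductive genes, Cyp40 and, of the carbohydrases, Treh, Amyrel, Mal-A5, Mal-B1 and Mal-B2 were named after their values were seen. Replicate numbers did not pair the arrays, since residuals of equal numbers correlated between -0.03 and 0.04 in the midgut. Each array was left out in turn. The fit was also repeated on the deposited values unscaled, after quantile normalization, with a pseudocount of 2% or 40% of the array mean in place of 10%, without the signal filter or with the 60th percentile, with the replicate number as a block, in 1 fit of all groups, and with probe sets of a gene averaged. With 4 arrays per group the precision is limited by their number. Sequences of the genes were not used here.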

Additional observations from a re-analysis of the deposited data

Results flagged for a closer look

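Of 334 checks of 4 arrays (167 named genes, 2 stages), 17 (5.09%) had 1 array far from the other 3 by Dixon's test, and chance alone flags about 1 in 20 groups. In larval midgut the array that stood apart was replicate 1 for CG3906 at 37.3, Hml at 13.6, Muc55B at 6246 and serp at 140.01. Replicate 3 stood apart for Sgs3 at 85.6, Sgs7 at 126 and Npc2c at 1341. Replicate 4 stood apart for Jon66Cii at 5870 and for ZnT77C at 214. Sgs3 and Sgs7 are glue protein genes of the salivary gland, and their high signals fell on the same array. In adult midgut replicate 1 stood apart for Vm34Ca at 18.6, replicate 2 for Mal-A1 at 5365, Sgs4 at 4.10, obst-J at 3.59 and sut1 at 194, and replicate 3 for CG16826 at 3.63, Sgs3 at 3.48 and sut2 at 221. Of these, the adult values of CG16826, Sgs3, Sgs4 and obst-J lie far under the median signal of the arrays.

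The stage difference in the midgut differed from that in the hindgut for 2023 probe sets and from that in the whole animal for 4280, by limma's interaction term. Against the hindgut the terms were 9.06 for CG5084, 9.04 for CG10154, 8.15 for CG33128, 8.14 for CG34282, 8.08 for CG7715, -8.14 for CG17192, 2.63 for MtnC and -2.98 for odd. Against the whole animal they were 9.98 for Acp98AB, 9.67 for CG16826, 9.65 for Vm34Ca, 9.46 for dhd, 9.42 for CG18628 and 8.96 for Mst57Da.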

How the results depend on the processing

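With a pseudocount of 2% the midgut comparison called 1924 probe sets, 904 higher and 1020 lower, and with one of 40% it called 749, 349 higher and 400 lower, beside 1185, 559 and 626 as reported, so the counts follow how much weight dim signals get. The 40% pseudocount left 1297 calls of the hindgut term (681 above and 616 below zero, beside 1034 and 989) and 2605 of the whole-animal term, 1442 of them above zero, beside 4280 and 2635. Under the other settings the 3 counts stayed within 1.5 times the reported ones, in each direction. With 1 array left out in turn, and in the midgut also with larval replicates 1 and 2 left out (chosen after the values were seen), the midgut counts were 1187 to 1225 in all, 544 to 586 higher and 622 to 667 lower. Those of the hindgut term were 2008 to 2087, 997 to 1070 and 977 to 1041, and those of the whole-animal term 4233 to 4362, 2564 to 2705 and 1618 to 1678. The replicate block gave 1189, 2022 and 4285 calls and changed the call of no gene named in the report's midgut comparison. Quantile normalization of the whole-animal term gave 1993 calls above and 2079 below zero, beside 2635 and 1645.

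Of the 129 called genes that the report names, 109 kept their call and direction under every setting run for them, and none turned round. The 40% pseudocount ended 19 calls. Leaving out 1 array ended the calls of Act87E, GstD7, Lsp2, jhamt, mira and verm, with the values given in the report, and leaving out larval replicates 1 and 2 ended those of Acp98AB at 0.78, CG16826 at 0.89, Lsp2 at 0.71 and Mst57Da at 0.75 on the log2 scale. Quantile normalization ended the calls of Act87E and mira, and 1 fit of all groups those of CG16826, CG18628 and Lsp2. The cause was not tested. Among the processes with no call, 1 respiratory chain gene was called higher without larval replicate 4 or without adult replicate 4 and 1 lower with the mean of all probe sets of a gene, and 1 apoptosis or autophagy gene higher without larval replicate 3. Signal over background limits what can be read of dim genes.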

Other observations

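Members of 1 enzyme family that lie next to each other were in several cases called in opposite directions, beyond the P450, glutathione transferase, sugar transporter and drosomycin pairs given above. Cyp4d2 stood at 832, 418, 363 and 555 in larval midgut and at 98.2, 85.3, 85.2 and 128 in adult midgut, a log2 fold of 2.28. The genes on either side of it, Cyp4d14 and Cyp4ae1, had log2 folds of -1.53 and -2.09. Cyp4ac3 rose with a log2 fold of 1.12, and its neighbour Cyp4ac2 fell with one of -1.13; the signals of Cyp4ac2 were at most 4.97 in larval and 17.2 in adult midgut. Among acyl-CoA synthetases, Acsx4 rose with a log2 fold of 1.03 and Acsx3 fell with one of -2.60. These pairs were chosen from the 41 opposite neighbour pairs after their values were seen, and family members can share probe sequence, which was not tested.

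Hmgs, which makes the precursor of the mevalonate pathway and so of juvenile hormone, gave 758, 926, 974 and 854 in larval midgut and 405, 395, 329 and 375 in adult midgut, a log2 fold of 1.201. CG6296, a gene of the lipase family, had 5895, 5835, 5593 and 5476 in larval midgut, against 1239, 765, 908 and 1119 in adult midgut, a log2 fold of 2.51. CG17192 of the same family was lower in larval midgut. The arrays of the stages did not overlap for Hmgs or CG6296.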
